A study of Mus musculus with 48 samples.

Results

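MHC class II molecules are the cell surface proteins on which B cells, dendritic cells and macrophages show peptides to CD4+ T cells. Expression of 8 genes of this pathway, H2-Aa, H2-Ab1, H2-Ea, H2-Eb1, H2-DMa, H2-DMb1, Cd74 and Ifi30, was read in 48 arrays of liver, heart, spleen and lung. Members were all probe sets (groups of short probes for 1 transcript) that the platform's gene table assigns to 1 of these symbols. They came to 9 of 12422 probe sets without controls, since H2-DMa has 2, called set A and set B here. A further probe set lists H2-DMb1 together with the related H2-DMb2 and was not used. The mice were male littermates aged 3 months, from inbred A/J and C57BL/6J stocks, with no treatment named in the labels. Each tissue of each strain was taken at time 1 and at time 2 (terms not explained in the labels), and each of the 16 groups has 3 biological replicates, numbered 1 to 3. By the codes of the array files in the labels, the arrays fall into 4 runs. Both strains of a tissue and time share a run, whereas the times of a tissue do not. Time and run can thus not be told apart, and no test of time alone was made. A change of the strain difference between times is likewise one between runs. The litters are not named, and p-values measure the spread between these animals. Since the probe sequences were not used here, the amount of a transcript and how well each strain's sequence matches the probes cannot be told apart.

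A class II molecule is a pair of an alpha and a beta chain. H2-Aa and H2-Ab1 encode the chains of the I-A molecule, and H2-Ea and H2-Eb1 those of I-E. Cd74, the invariant chain, escorts the pair through the cell and blocks its groove until it is cut down in the lysosome. H2-DMa and H2-DMb1 form H2-M, which then swaps the remaining fragment for antigen peptide, and Ifi30 (GILT) reduces disulfide bonds of antigens there. C57BL/6J is a textbook I-E null strain: its haplotype carries a deletion at the start of H2-Ea, and the gene is annotated as a transcribed pseudogene in the RefSeq table (GRCm38.p6). A/J carries another haplotype and makes I-E. In bulk tissue, fewer cells that express these genes and less RNA per cell cannot be told apart.

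The H2 genes lie together in the MHC on chromosome 17: H2-DMa at chr17:34119693-34139101, H2-DMb1 at chr17:34153191-34160229, H2-Ab1 at chr17:34263227-34269418, H2-Aa at chr17:34282744-34287823, H2-Eb1 at chr17:34305867-34316674 and H2-Ea at chr17:34341952-34344645 (GRCm38.p6, RefSeq). Ifi30 lies elsewhere, at chr8:70762773-70766663, and Cd74 on another chromosome. Class II promoters are known for a shared array of short elements, the X box, bound by the RFX complex, and the Y box, an inverted CCAAT element bound by NF-Y, over which the coactivator Ciita assembles. The stretches that hold both in the promoters of members, from the C57BL/6J reference (RefSeq, GRCm38.p6), are printed because class II genes are known for this pair, which few other promoters hold. Capitals mark CTNGNAAC, letters of the X box chosen after these promoters had been read, and then ATTGG, the Y box. Each runs 5′ to 3′ on the strand of its gene, at chr17:34153082-34153146 (plus strand) for H2-DMb1, chr17:34287855-34287919 (minus strand) for H2-Aa and chr17:34305761-34305824 (plus strand) for H2-Eb1.
H2-DMb1: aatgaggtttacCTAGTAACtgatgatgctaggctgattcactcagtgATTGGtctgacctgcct
H2-Aa: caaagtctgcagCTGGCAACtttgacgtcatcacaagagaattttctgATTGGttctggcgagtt
H2-Eb1: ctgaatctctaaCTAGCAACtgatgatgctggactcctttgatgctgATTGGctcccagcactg
The gap between the boxes is 28 bases in H2-DMb1 and H2-Aa and 27 in H2-Eb1, and the first box begins 97, 84 and 94 bases before the annotated start. Within 250 bases upstream and on either strand, CTNGNAAC occurs in 10.9% and ATTGG in 33.8% of 32851 promoters, and the 2 do not overlap each other. The pair, 10 to 30 bases apart and in that order, occurs in 80 promoters, or 0.244%. The promoter table (RefSeq, GRCm38.p6) held 5 of the 8 members, of which 3 have the pair. Neither H2-DMa promoter nor that of Ifi30 has the pair, although 1 H2-DMa promoter holds ATTGG, and a match or its absence says only that these letters are or are not in the window. Among 4 related class II chains, all in the promoter table, H2-Ob also holds it.

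The median signal of an array was 8.87 to 9.02 in log2 units. A ceiling touched some members: at time 1, the top value of each liver, lung and spleen array was held by 3 to 19 probe sets at once. Spleen H2-Aa at time 1 lay within 0.152 of the array's highest value and spleen Cd74 within 0.159. At time 2 they lay between 0.243 and 0.382, and between 0.170 and 0.306, below it. Cd74 was the highest value in 1 C57BL/6J lung at time 1, and H2-Eb1 in 1 C57BL/6J spleen at time 1. At time 1 the strain differences of Cd74 in lung and of H2-Eb1 in spleen are therefore lower bounds of their size. For Cd74 in spleen at time 1, 5 of 6 arrays of the strains were at the ceiling, so that its difference has no such bound. At time 2 no array had more than 1 probe set at its highest value. Spleen H2-Aa and Cd74 still read near the top of the scale there, and compression of their differences was not tested. The tissues carried their own markers (cardiomyocyte markers averaged 13.64 to 13.89 in hearts, and hepatocyte markers 13.16 to 13.54 in livers). Transcripts of other organs were present in some arrays: exocrine pancreas markers averaged 12.18 to 13.14 in 5 spleens against 9.41 to 10.17 in the other 7, and they reached 12.99 in 1 C57BL/6J liver at time 2. Albumin, a hepatocyte product, reached 10.05 to 13.39 in lungs at time 1, and lung markers reached some hearts. The 3′ signal of Gapdh exceeded its 5′ signal by 0.64 to 1.08 in lungs at time 1 and 1.05 to 1.96 at time 2. It did so by 0.48 to 1.31 in spleens, 0.08 to 1.41 in hearts and 0.16 to 0.39 in livers.

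**Figure D1:**
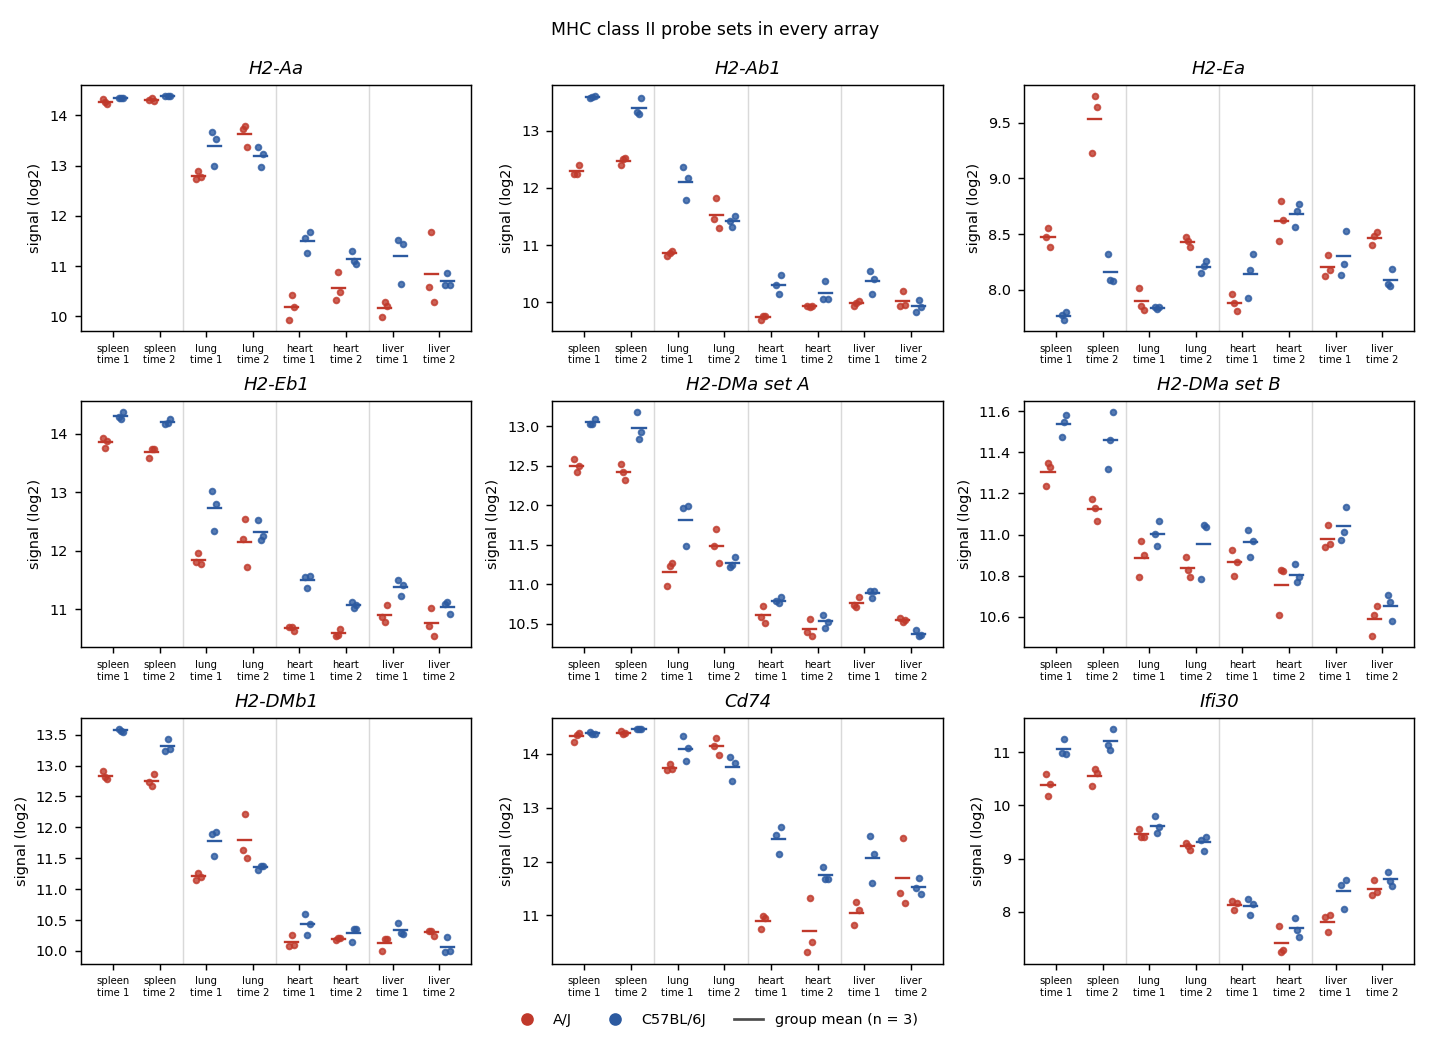
Signal on the log2 scale (vertical axes, separate for each panel and not starting at 0) of each MHC class II probe set in all 48 arrays, by tissue and time. Points are arrays, red A/J and blue C57BL/6J, and bars are means of 3 arrays; for H2-Ab1 the A/J spleens (12.24 to 12.52) sit below the C57BL/6J spleens (13.29 to 13.60), while for H2-Ea they sit above.

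Tissues were compared at time 2, where all share 1 array run. Averaged over both strains, spleen, rich in B cells, was highest for all 9 probe sets. Lung had the second highest mean for 8 of them, the exception being H2-Ea. H2-Ab1 was 2.89 log2 units higher in spleen than in heart (SE 0.082, 7.42-fold, limma adjusted p = 4.2e-19) and 2.96 higher than in liver (SE 0.082). H2-DMb1 was 2.79 higher in spleen than in heart (SE 0.087), and Ifi30 3.32 higher (SE 0.093). For Cd74 the spleen exceeded heart by 3.19 and lung by 0.47, of which the second did not pass within A/J (0.25, adjusted p = 0.413). H2-Ea exceeded heart by 0.20, a call that was lost without any 1 of 5 of the 12 arrays. Averaged over both strains, all 9 were higher in spleen than in lung, heart and liver. Within C57BL/6J this did not hold for H2-Ea, which averaged 8.16 in spleen, 8.21 in lung and 8.68 in heart. Of all probe sets, 53%, 67% and 61.4% were called in these comparisons, 29.3%, 29.8% and 31.3% as higher in spleen. Spleen and lung did not overlap for 8 of 9 probe sets, beside 25.8% of all.

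Lung exceeded heart in 7 probe sets and liver in 8, by 2.56 and 2.64 for H2-Aa (SE 0.15 each) and by 2.71 and 2.33 for Cd74 (SE 0.16 each). Of all probe sets, 68.5% and 66.1% were called, 29.3% and 31.7% as higher in lung. H2-Ea was lower in lung than in heart, beside 39.2% of all probe sets (-0.33, adjusted p = 7.1e-04), although not within A/J alone (-0.19, adjusted p = 0.139). Heart and liver were close: 4 of 9 passed, beside 56.8% of all. H2-Ea (0.37, SE 0.077) and H2-DMa set B (0.16, SE 0.061) were higher in heart, beside 34.5% of all, and Cd74 (-0.38, SE 0.16, adjusted p = 0.0496) and Ifi30 (-0.96, SE 0.093) were lower, beside 22.3%. Of these, Ifi30 alone passed within each strain. Group means of H2-Ea in lung, heart and liver at time 2 were low, at percentile 33.7 to 44.9 of all probe sets. Shifts of background were not told apart from expression there. Cd74 was 0.22 within C57BL/6J (adjusted p = 0.46) and, without the A/J liver numbered 2, -0.19 over both strains (adjusted p = 0.211). For H2-Aa, heart minus liver was 0.09 with a 95% interval of -0.23 to 0.41.

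In the spleen, A/J had lower signal for most class II probe sets and higher signal for 1, H2-Ea. At time 1, 5 probe sets were lower in A/J (1.78% of all probe sets were) and H2-Ea was higher (1.14% of all), so that 6 of 9 passed beside 2.91% of all. At time 2, 6 were lower (7.78% of all) and H2-Ea was again higher (8.24% of all), 7 of 9 beside 16% of all. Over the 9, the median of A/J minus C57BL/6J was -0.44 and then -0.51, against 0.034 and -0.054 over all probe sets. The groups did not overlap for 8 and 9 of the probe sets, beside 29.1% and 27.3% of all.

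The beta chain of I-A, H2-Ab1, had the largest of the members' differences below 0 in spleen. At time 1 the A/J spleens read 12.25, 12.24 and 12.40 and the C57BL/6J spleens 13.57, 13.59 and 13.60. At time 2 they read 12.40, 12.51 and 12.52 against 13.33, 13.29 and 13.57. The highest A/J spleen thus stayed well under the lowest C57BL/6J spleen at either time. A/J minus C57BL/6J was -1.29 at time 1 (SE 0.087, 2.44-fold, adjusted p = 4.03e-06) and -0.92 at time 2 (SE 0.087, 1.89-fold, adjusted p = 2.13e-05). Its alpha chain partner H2-Aa read 14.33, 14.27 and 14.23 in A/J against 14.35, 14.36 and 14.34 in C57BL/6J at time 1. These values of time 1 are near the ceiling, and the fitted differences of -0.073 at time 1 and -0.076 at time 2 did not pass (adjusted p = 0.612 and 0.474). At time 2 H2-Aa averaged 14.31 in A/J spleens and 14.38 in C57BL/6J spleens, also near the top of the scale, so this difference too may be compressed.

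The beta chain of I-E, H2-Eb1, read 13.93, 13.76 and 13.88 in A/J spleens and 14.28, 14.24 and 14.36 in C57BL/6J spleens at time 1. At time 2 it read 13.59, 13.73 and 13.74 against 14.16, 14.18 and 14.24. It was lower in A/J at both times, with differences of -0.44 (SE 0.077, adjusted p = 0.00757) and -0.51 (SE 0.077, adjusted p = 7.2e-04). The first is a lower bound of its size, since 1 C57BL/6J spleen was at the ceiling, and it missed the limit without that spleen, numbered 3 (-0.41, adjusted p = 0.0523). Cd74 differed by -0.059 and -0.071, with 95% intervals of -0.21 to 0.09 and -0.22 to 0.08, the first with arrays of both strains at the ceiling.

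The H2-M genes were lower in A/J spleens. H2-DMb1, the beta chain, read 12.91, 12.81 and 12.79 in A/J against 13.59, 13.56 and 13.55 at time 1, and 12.74, 12.68 and 12.86 against 13.23, 13.43 and 13.26 at time 2. No A/J spleen reached a C57BL/6J spleen, and the differences were -0.73 (SE 0.080, adjusted p = 2.64e-04) and -0.55 (SE 0.080, adjusted p = 4.82e-04). The alpha chain H2-DMa, by set A, read 12.58, 12.42 and 12.50 against 13.03, 13.03 and 13.10, and then 12.53, 12.42 and 12.31 against 13.17, 12.84 and 12.92. Again the strains did not overlap, and A/J minus C57BL/6J was -0.56 at both times (SE 0.095, adjusted p = 0.00646 and 0.00151). Set B of the same gene gave -0.23 at time 1 (SE 0.082, adjusted p = 0.165) and -0.34 at time 2 (SE 0.082, adjusted p = 0.015, and 0.057 without the A/J spleen numbered 3), so the sets shared the direction and differed in size. Ifi30, the thiol reductase, read 10.59, 10.17 and 10.40 in A/J against 10.98, 11.24 and 10.96 at time 1, and 10.36, 10.68 and 10.60 against 11.12, 11.05 and 11.44 at time 2. It was lower in A/J by a difference of -0.67 (SE 0.14, adjusted p = 0.0185) and -0.66 (SE 0.14, adjusted p = 0.00573). The call at time 1 was lost without the A/J spleen numbered 2 or 3 or the C57BL/6J spleen numbered 2 (adjusted p = 0.0699 to 0.0978).

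H2-Ea, the alpha chain of I-E, ran the other way. A/J spleens read 8.48, 8.56 and 8.38 at time 1 and 9.23, 9.74 and 9.64 at time 2. C57BL/6J spleens read 7.78, 7.73 and 7.80, and then 8.32, 8.09 and 8.08. The strains did not overlap at either time, and A/J was 0.70 higher at time 1 (SE 0.12, adjusted p = 0.00612) and 1.37 higher at time 2 (SE 0.12, 2.59-fold, adjusted p = 1.38e-05). The C57BL/6J spleens lay within or below the range of the other C57BL/6J tissues (7.83 to 8.77). C57BL/6J carries a null allele, and its values may be those of background, which was not tested. If they are, the folds are lower bounds. In C57BL/6J at time 2, spleen was 0.52 lower than heart (adjusted p = 3.14e-04) and differed from lung by -0.047 (adjusted p = 0.781), so the higher spleen level of the pooled strains was not seen within C57BL/6J. The strain difference in spleen did not pass a test of departure between times (0.67, SE 0.17, adjusted p = 0.0904), although without the A/J spleen of time 2 numbered 1 it did (0.82, adjusted p = 0.0169). Outside spleen the A/J arrays ranged from 7.82 to 8.80, and H2-Ea passed in liver at time 2 only. It read 8.40, 8.48 and 8.52 in A/J against 8.05, 8.04 and 8.19 (0.37, SE 0.097, adjusted p = 0.0228). These A/J livers lay within the range of the C57BL/6J tissues outside spleen (7.83 to 8.77), and a shift of background was not told apart from expression.

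Markers of other cells moved with the spleen differences, and their part in the result was not tested. In A/J, 2 of 11 B cell markers were lower at time 1 (Cd79a and Ly6d) and 4 at time 2, with Cd79a at -0.61 and -1.05. The mean of that list was 11.26 to 11.39 in A/J against 11.58 to 11.79 at time 1, and 11.15 to 11.40 against 11.54 to 11.80 at time 2. Macrophage markers were lower in 5 of 14 at both times, among them Marco (-1.44 and -1.28) and Mpeg1 (-1.80 and -1.33), and Mrc1 was higher at time 2. Their mean was 10.34 to 10.40 against 10.85 to 11.09 at time 1 and 10.47 to 10.54 against 10.85 to 11.11 at time 2. Dendritic cell markers were lower in 1 and 4 of 9, and T cell markers in 0 and 4 of 9. Of 5 general leukocyte markers, 3 were lower in A/J spleens at time 1 (Laptm5, Coro1a and Cd52; list mean 12.17 to 12.27 against 12.66 to 12.82) and 2 at time 2 (Laptm5 and Coro1a; 12.43 to 12.67 against 12.54 to 12.78). Erythroid markers were higher in A/J in 7 of 8 genes at time 2 (list mean 12.02 to 12.31 against 9.34 to 9.97) and in none at time 1 (11.45 to 11.76 against 10.24 to 11.42), and hepatocyte markers were higher in 5 of 7 at time 2 and in none at time 1. Without the 5 spleens that carried pancreas transcripts, 1 array is left in A/J at time 1 and 1 in C57BL/6J at time 2. Fewer members passed in that fit, which assumes that a lone array varies like the others. The differences kept their sign and lay near those of all spleens, for example -0.56 for H2-Eb1 and -0.76 for H2-DMb1 at time 1.

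**Figure D2:**
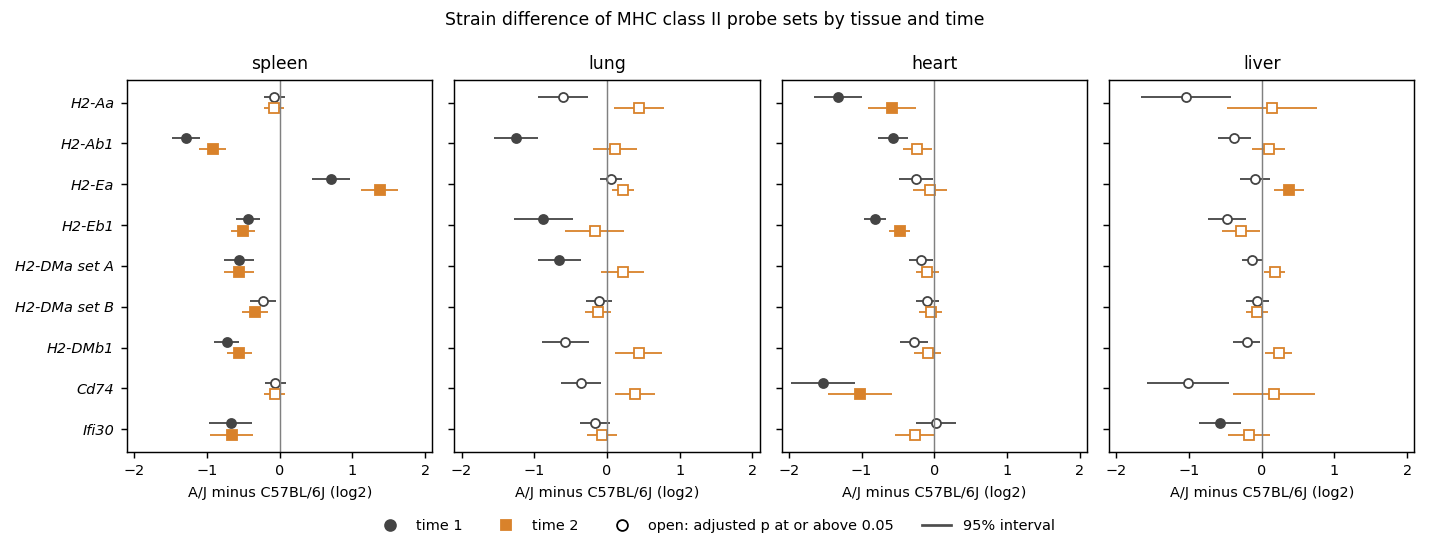
Strain difference, A/J minus C57BL/6J on the log2 scale (horizontal axis), of each MHC class II probe set in 4 tissues at time 1 (circles) and time 2 (squares), with 95% intervals of the limma fit and filled symbols where the adjusted p is under 0.05. The H2-Ab1 value in lung is -1.25 at time 1 and 0.11 at time 2, and H2-Ea in spleen lies to the right of 0 at both times.

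In lung, the strains differed at time 1, with A/J lower in 3 probe sets (H2-Ab1, H2-Eb1 and H2-DMa set A), and none passed at time 2. Of all probe sets, 2.14% were called at time 1, 1.26% as lower in A/J, and 10.2% at time 2. Groups without overlap were found for 6 and 3 members, beside 20.4% and 28.3% of all. H2-Ab1 read 10.82, 10.87 and 10.89 in A/J lungs against 12.37, 11.78 and 12.18 in C57BL/6J lungs at time 1, a difference of -1.25 (SE 0.14, 2.38-fold, adjusted p = 2.4e-04). At time 2 the A/J lungs read 11.46, 11.82 and 11.30, the C57BL/6J lungs 11.43, 11.32 and 11.50, and the ranges overlapped (0.11, SE 0.14, adjusted p = 0.622). That change of the strain difference between times, which is also one between runs, passed (1.36, SE 0.20, adjusted p = 0.0147). H2-Ab1 was the only member with such a call in any tissue, beside 0.177% of all probe sets in lung, 0.209% in spleen, 0.386% in heart and 4.9% in liver. The call rested on a thin margin: without the A/J lung of time 1 numbered 1 the value was 1.34 with an adjusted p of 0.0618.

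H2-Eb1 in lung was lower in A/J at time 1 (11.81, 11.97 and 11.77 against 13.03, 12.34 and 12.80; -0.88, SE 0.19, adjusted p = 0.027), and so was H2-DMa by set A (-0.66, SE 0.14, adjusted p = 0.0217). At time 2 they stood at -0.17 and 0.22 and did not pass. H2-Aa read 12.73, 12.90 and 12.77 against 13.68, 13.00 and 13.52 at time 1, with every A/J lung below every C57BL/6J lung, and missed the limit (-0.60, SE 0.16, adjusted p = 0.0811). At time 2 it read 13.72, 13.79 and 13.37 against 13.38, 12.98 and 13.23 (0.43, adjusted p = 0.0937). H2-DMb1 and Cd74 had no overlap at either time, with A/J lower at time 1 and higher at time 2. The share of all probe sets with this pattern was not counted. H2-DMb1 read 11.15, 11.27 and 11.20 against 11.89, 11.53 and 11.92, and then 11.64, 12.22 and 11.50 against 11.31, 11.38 and 11.38. Cd74 read 13.70, 13.80 and 13.71 against 14.32, 13.86 and 14.10, and then 14.14, 14.29 and 13.97 against 13.93, 13.50 and 13.83. The differences did not pass, at -0.57 and 0.43 for H2-DMb1 and at -0.35 and 0.38 for Cd74, where 1 C57BL/6J lung at the ceiling makes the first a lower bound of its size. At time 2 limma called 0 of 9, with 6 differences above 0 and 3 below. The adjusted p was 0.058 for H2-Ea, 0.071 for Cd74, 0.079 for H2-DMb1 and 0.0937 for H2-Aa, each higher in A/J.

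The lung result depended on single arrays, and the share of all probe sets called without each is not given here. The C57BL/6J lung of time 1 numbered 2 was the lowest of its group for H2-Aa, H2-Ab1, H2-Eb1 and Cd74, and without it 5 probe sets passed at time 1, with H2-Aa at -0.80 (adjusted p = 0.00914). Without the A/J lung numbered 1 or 2, or the C57BL/6J lung numbered 1 or 3, H2-Ab1 alone passed, and without the A/J lung numbered 3, H2-Eb1 did not (adjusted p = 0.115). For the change between times, 4 passed without the C57BL/6J lung of time 1 numbered 2 or the A/J lung of time 2 numbered 3. Leukocyte markers moved with these values, and their part in the result was not tested: the list of 5 (Ptprc, Laptm5, Coro1a, Cd53 and Cd52) had medians of -0.23 and, at time 2, 0.38 as A/J minus C57BL/6J, with none past the limit. Its mean was 10.40 to 10.47 in A/J against 10.62 to 10.90 at time 1, and 10.43 to 11.11 against 10.13 to 10.62 at time 2. At time 2, the dendritic cell markers Itgax (0.36, adjusted p = 0.0225) and Irf8 (0.53, adjusted p = 0.037), 2 of 9, and the B cell marker Cd72 (0.84, adjusted p = 0.0446) were higher in A/J lungs. No dendritic cell marker was called at time 1, and the mean of that list was 9.40 to 9.47 against 9.43 to 9.63 at time 1 and 9.43 to 9.55 against 9.39 to 9.48 at time 2. Of 14 macrophage markers, Mpeg1 was lower at time 1 (-1.10), and at time 2 Mrc1 and Ctsk were higher and Mpeg1 and Cd5l lower. Albumin, at time 1, was 12.81 to 13.39 in A/J lungs and 10.05 to 12.46 in C57BL/6J lungs. The excess of Gapdh 3′ over 5′ signal was 0.66 to 0.93 in A/J lungs and 0.64 to 1.08 in C57BL/6J lungs at time 1. At time 2 it was 1.36 to 1.96 and 1.05 to 1.37, and its part in the lung result was not tested.

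In heart, 4 probe sets were lower in A/J at time 1 and 3 at time 2, with none higher, beside 1.52% and 2.61% of all probe sets lower in A/J (4.7% and 5.23% called in either direction). Strains did not overlap for 6 and 4 members, beside 23.4% and 21.1% of all. Cd74, the invariant chain, read 10.75, 10.99 and 10.96 in A/J hearts against 12.49, 12.14 and 12.65 in C57BL/6J hearts at time 1, and 10.32, 11.33 and 10.52 against 11.89, 11.68 and 11.67 at time 2. The strains were apart at both times, by -1.53 (SE 0.20, 2.89-fold, adjusted p = 8.22e-04) and -1.03 (SE 0.20, 2.04-fold, adjusted p = 0.00879). H2-Aa read 9.93, 10.42 and 10.18 against 11.57, 11.26 and 11.67, and then 10.33, 10.89 and 10.48 against 11.30, 11.10 and 11.04. It was lower in A/J by a difference of -1.32 at time 1 (SE 0.15, adjusted p = 2.45e-04) and -0.58 at time 2 (SE 0.15, adjusted p = 0.0433). The second call was lost when any 1 array other than the A/J heart numbered 2 was left out (adjusted p = 0.077 to 0.156), and also with limma's trend and robust options (0.0664) or in a fit of all 48 arrays (0.133).

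H2-Eb1 had the smallest standard error of the heart differences, at 10.70, 10.70 and 10.62 against 11.55, 11.37 and 11.56 at time 1 and 10.55, 10.56 and 10.66 against 11.12, 11.02 and 11.07 at time 2. Its differences were -0.82 (SE 0.068, adjusted p = 1e-05) and -0.48 (SE 0.068, adjusted p = 8.89e-04). H2-Ab1 was lower at time 1 (9.69, 9.77 and 9.76 against 10.31, 10.14 and 10.47; -0.57, SE 0.095, adjusted p = 0.00399) and did not pass at time 2 (-0.23, adjusted p = 0.214). H2-DMa, H2-DMb1, H2-Ea and Ifi30 did not pass in heart at either time, and the 95% interval for Ifi30 at time 1 was -0.25 to 0.30. In heart, then, the calls fell on the I-A chains, H2-Eb1 and Cd74.

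Airway and lung transcripts were present in some hearts. At time 1, 3 of 5 lung epithelium markers had less signal in A/J (Sftpc, Sftpb and Ager), with list means of 9.61 to 10.10 against 10.29 to 11.05. Scgb1a1, a secretory protein of airway cells, read 10.42, 11.72 and 9.88 in A/J hearts and 11.92, 13.81 and 13.30 in C57BL/6J hearts. The strain difference of Scgb1a1 did not pass (-2.34, adjusted p = 0.142). The C57BL/6J heart with the most Scgb1a1 had the lowest H2-Aa and Cd74 of its group. This is the order of 3 arrays by 1 marker, and the part of lung transcripts in the heart differences was not tested. At time 2 Scgb1a1 was 9.50, 9.12 and 8.94 against 8.87, 12.61 and 8.79. A fit chosen after seeing the data left out the 2 C57BL/6J hearts of time 1 with the most Scgb1a1. This leaves 1 array in that group, its spread assumed to be like that of the other groups. The heart that stayed read 11.92 for Scgb1a1, still above every A/J heart of time 1, so the fit does not remove that imbalance. In it H2-Aa was -1.39 and H2-Ab1 -0.57, and H2-Ab1 lost its call. In the A/J hearts of time 1 numbered 1 and 3 the 3′ signal of Gapdh exceeded its 5′ signal by 1.34 and 1.41, against 0.10 in the A/J heart numbered 2 and 0.18 to 0.30 in the C57BL/6J hearts. Without those 2, which leaves 1 A/J heart of time 1 under the same assumption, H2-Ab1 was -0.54 and again lost its call. Macrophage markers were lower in 3 of 14 at time 1 (list mean 9.06 to 9.18 against 9.30 to 9.45) and 2 at time 2 (9.01 to 9.11 against 9.19 to 9.26), C1qb and C1qc both times, and the leukocyte markers Cd53 and Cd52 at time 1 (-0.62 and -0.36; list mean 9.02 to 9.07 against 9.20 to 9.43). Their part in the result was not tested.

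**Figure D3:**
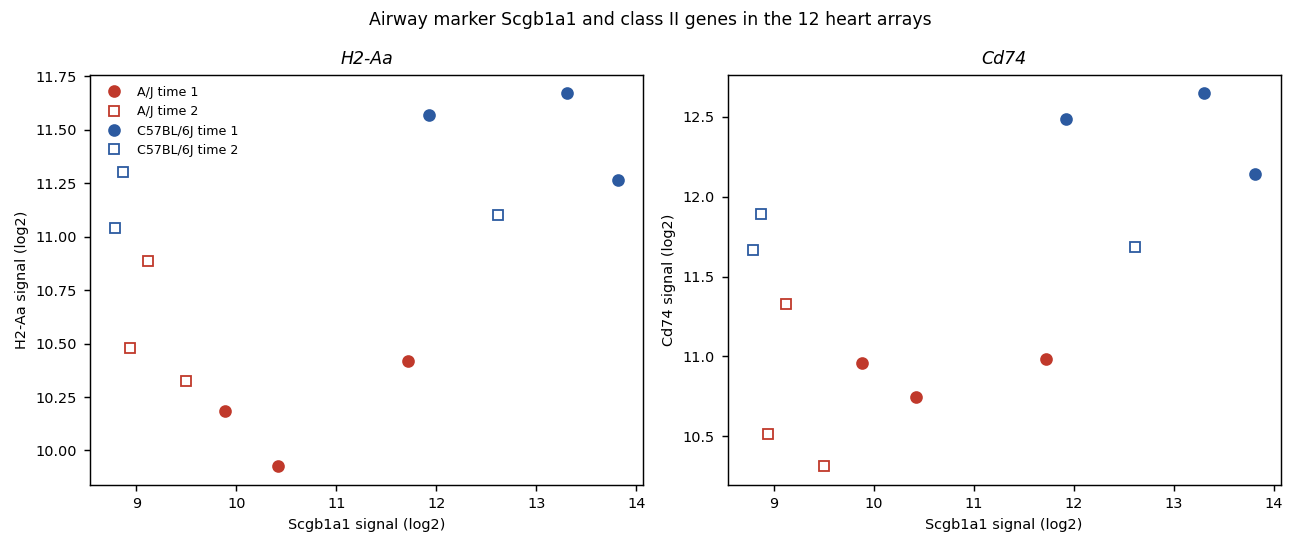
Signal of H2-Aa and Cd74 (vertical axes, log2) against that of the airway gene Scgb1a1 (horizontal axes, log2) in the 12 hearts, by strain and time (filled time 1, open time 2). The 3 C57BL/6J hearts of time 1 have H2-Aa between 11.26 and 11.67 at Scgb1a1 between 11.92 and 13.81, and the 2 C57BL/6J hearts of time 2 with Scgb1a1 of 8.79 and 8.87 have H2-Aa of 11.04 and 11.30.

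In liver, 1 member passed at each time, and not the same one, beside 2.93% and 12.9% of all probe sets. Ifi30 was lower in A/J at time 1 (1.2% of all probe sets were), at 7.90, 7.62 and 7.93 against 8.50, 8.06 and 8.61 (-0.57, SE 0.14, adjusted p = 0.0345), and H2-Ea was higher at time 2 (5% of all probe sets were), with the values given for it before. Larger differences at time 1 missed the limit. H2-Aa read 9.99, 10.28 and 10.19 against 11.51, 10.63 and 11.44 (-1.04, SE 0.29, adjusted p = 0.0789), and Cd74 10.82, 11.24 and 11.09 against 12.46, 11.61 and 12.14 (-1.02, SE 0.26, adjusted p = 0.0575). All A/J livers lay below all C57BL/6J livers for both genes, and 6 of 9 members did not overlap, beside 18.9% of all probe sets.

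At time 2 the order was mixed, and 3 of 9 members did not overlap, beside 33.2% of all. H2-Aa read 10.58, 11.67 and 10.28 in A/J livers against 10.61, 10.86 and 10.62, and Cd74 11.42, 12.43 and 11.24 against 11.51, 11.69 and 11.39. The A/J liver numbered 2 was the highest of the 6 for both, and the other A/J livers were within or under the C57BL/6J range. The differences were 0.15 (95% interval -0.48 to 0.77) and 0.16 (-0.40 to 0.73). The change of the difference between times did not pass for any member, at 1.19 for H2-Aa (SE 0.41, adjusted p = 0.105), 1.18 for Cd74 (SE 0.37, adjusted p = 0.0813) and 0.44 for H2-DMb1 (SE 0.12, adjusted p = 0.0548), beside 4.9% of all probe sets called.

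Single livers set these calls, and the share of all probe sets called without each is not given here. Without the C57BL/6J liver of time 1 numbered 2, 5 probe sets passed at time 1, with Cd74 at -1.25 (adjusted p = 0.0277) and H2-Aa at -1.32 (adjusted p = 0.028), whereas Ifi30 lost its call without any other liver of time 1. H2-Ea at time 2 lost its call without the A/J liver numbered 3 or the C57BL/6J livers numbered 1 or 2, where adjusted p was 0.0679 to 0.0841. Without the A/J liver of time 2 numbered 2, H2-Eb1 passed as well (-0.42, adjusted p = 0.0253), and without the C57BL/6J liver numbered 2, which carried pancreas transcripts, H2-DMb1 passed (0.31, adjusted p = 0.045) while H2-Ea did not. For the change between times, 3 members (H2-Aa, H2-Ab1 and Cd74) passed without the C57BL/6J liver of time 1 numbered 2. Leukocyte markers Cd53 and Cd52 were lower in A/J livers at time 1 (-0.68 and -0.55; with list means of 8.92 to 9.00 against 9.13 to 9.43), and their part in the result was not tested. Arrays numbered 2 stood to the same side of their groups for H2-Aa and Cd74 in liver, heart and lung: highest in A/J at both times and lowest in C57BL/6J at time 1. Spleen was not included in this comparison. The labels do not say whether same-numbered arrays come from 1 mouse.

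**Figure D4:**
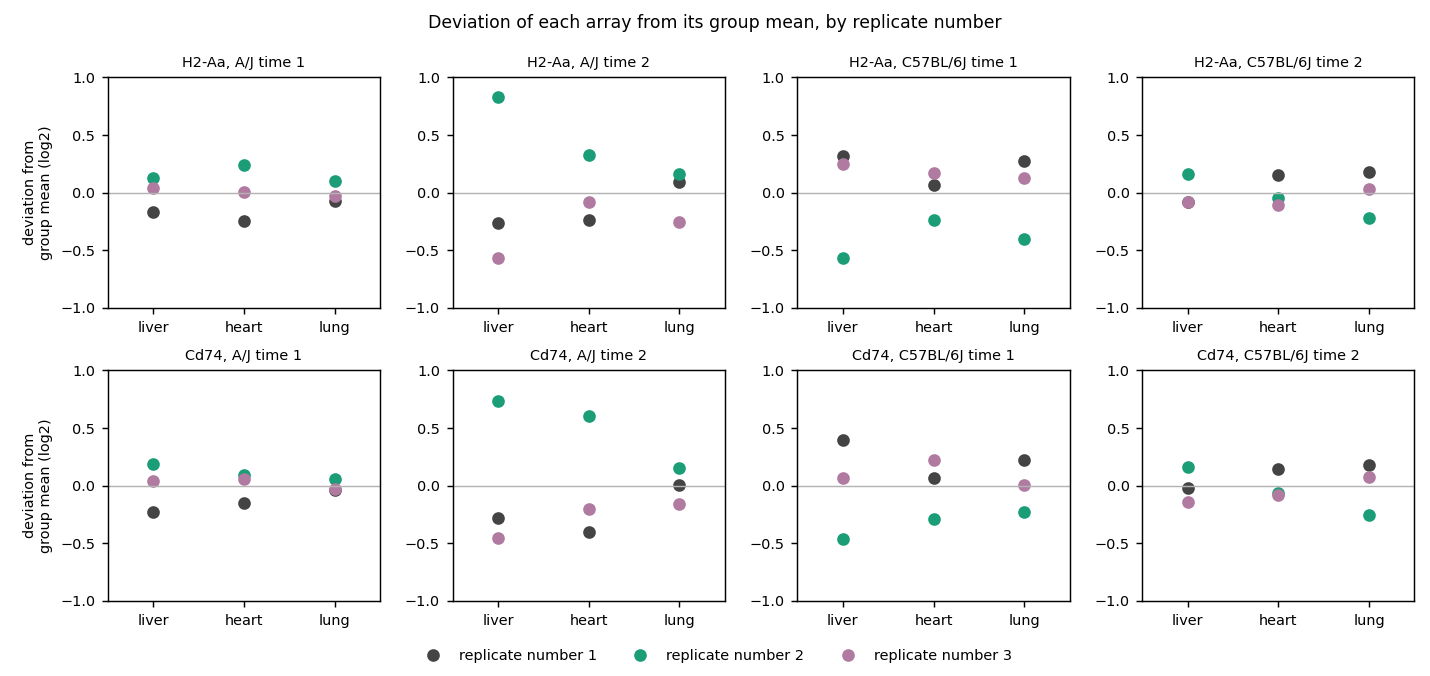
Deviation of each array from the mean of its group on the log2 scale (vertical axes) for H2-Aa and Cd74 in liver, heart and lung, coloured by the replicate number in the labels. In A/J the array numbered 2 is the highest in the 3 tissues at both times, and in C57BL/6J at time 1 it is the lowest in all 3.

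Whether the strain difference itself departed between tissues was tested over all 48 arrays. It did for 7 of 9 probe sets, beside 23.7% of all: H2-Ea (adjusted p = 4.35e-11), H2-Ab1 (2.19e-07), Cd74 (1.42e-05), H2-DMb1 (6.06e-05), H2-DMa by set A (2.00e-04), H2-Aa (0.00369) and Ifi30 (0.00463). H2-Eb1 did not (adjusted p = 0.442), nor did H2-DMa by set B (adjusted p = 0.0621), and both had fitted differences below 0 in every tissue at both times. For Cd74 and H2-Aa the spleen difference at time 1 was read near the ceiling. Of the I-A chains, H2-Ab1 was called in spleen at both times and in lung and heart at time 1, and H2-Aa in heart at both times. Whether the chains differed from each other was not tested.

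Other genes of the pathway were counted list by list. Of 4 related class II chains, H2-Ob and H2-DMb2 were lower in A/J spleens at time 1 (-1.43 and -0.80), and all 4, with H2-Oa and H2-Eb2, at time 2. H2-Oa and H2-Ob form H2-O, an inhibitor of H2-M. H2-Ob was also lower in A/J lungs at time 1 (-0.51) and higher in A/J livers at time 2 (0.42). Of 7 transcription factors measured, none passed in lung or heart. Ciita, the coactivator that class II transcription depends on, was lower in A/J spleens at time 2 (-0.32, adjusted p = 0.0284) but not at time 1 (-0.25, adjusted p = 0.158), and higher in A/J livers at time 2 (0.29, adjusted p = 0.0192). Rfx1 and Nfya were lower and Nfyb higher in A/J spleens at time 2.

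Of 8 lysosomal proteases that cut antigen and invariant chain, Ctss, cathepsin S, was lower in A/J hearts at time 1 (-0.57, adjusted p = 0.02) and higher in A/J lungs at time 2 (0.90, adjusted p = 0.00231). In all, 1 was higher and 2 were lower in A/J hearts at each time. Ctsh was lower in A/J hearts at both times (-0.60 and -0.83). Ctsl was higher in A/J hearts at time 1 (0.53) and lower at time 2 (-0.62), a change that passed (-1.15, adjusted p = 0.0118). Ctsc and Lgmn were higher in A/J lungs at time 2, Lgmn lower in A/J spleens at time 2, Ctsz higher in A/J livers at time 1 and Ctsb higher in A/J livers and hearts at time 2. The costimulatory genes Cd40, Cd80, Cd83 and Cd86 passed in no strain comparison or change between times. Among 7 genes of interferon gamma signalling, the pathway that induces Ciita, Ifngr2 was lower in A/J spleens and lungs at time 2 and Socs1 in A/J spleens at time 2.

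Over the 16 group means, Pearson's r among the members other than H2-Ea was 0.866 to 0.989 (for H2-DMa, set A), and r of H2-Ea with each was -0.01 to 0.11. The points share 4 tissues and 4 array runs, and r is a description. Among genes other than the members, those most like H2-Aa in this measure were Laptm5 (0.984), Itgb2 (0.977) and Ptpn1 (0.976). Among the same genes, H2-Ab1 was closest to Ccl5 (0.985) and Selplg (0.984), and H2-DMb1, H2-DMa and H2-Eb1 had r of 0.986 to 0.994 with Selplg. Cd74 was closest to another member, H2-Aa (0.983), and outside the members to Cytip (0.962) and Ctss (0.960). The best match of H2-Ea, BC051019, reached 0.867.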

How the data were processed

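RNA of 48 mouse samples was hybridized to 1 Affymetrix MG-U74Av2 array each, from about 20 micrograms of total RNA, per the labels' protocols. The values deposited by the authors are on a log2 scale, one for each of 12488 probe sets. They were normalized by a method not given in the sources used here and were analysed as deposited. The 66 control probe sets were left out, and no filter on low values was applied. Names came from the platform's gene table, and of the 10833 probe sets listing a single gene, 10817 were found by Entrez identifier in the RefSeq table, which also gave coordinates, promoters and biotypes (GRCm38.p6).

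Tests used limma 3.58.1 in R 4.3.3. In the 12 arrays of a tissue, with a mean for each strain and time, A/J minus C57BL/6J was tested at each time, and its change as time 2 minus time 1. Departure between tissues was an F test over 48 arrays, and tissues were compared in the 24 arrays of time 2. P-values were adjusted by Benjamini-Hochberg over 12422 probe sets, with a limit of 0.05. In the lists, the probe set of highest mean over all arrays stood for a gene. The rule for named genes took every member, and genes of the lists where they passed or a result turned on them. The members, lists and tests were chosen with earlier results of these data known.

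Alternatives were centring on the array median, quantile normalization, leaving out the lower quartile of mean signal, limma's trend and robust options, the replicate number as a block, fits of all 48 or only 6 arrays, fits within a strain or at time 2 only, and leaving out arrays. Same-numbered arrays did not deviate together over all probe sets: in 0 of 8 tissue and time sets were all 3 correlations between strains above 0.1 (range -0.58 to 0.36). Between tissues of 1 strain and time, this held in 0 of 24 sets (range -0.34 to 0.29). The fits were tested on simulated data. Precision is limited by the number of arrays.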

Additional observations from a re-analysis of the deposited data

Results flagged for a closer look

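The strain difference of H2-Ab1 in lung departed between times, with a change of 1.36 that passed its test. The times of lung are also different array runs, and the 2 cannot be told apart. The excess of Gapdh 3′ over 5′ signal was 0.64 to 1.08 in lungs at time 1 and 1.05 to 1.96 at time 2, and its part was not tested. In lung, H2-DMb1 and Cd74 did not overlap between strains at either time and had opposite signs, with changes of 1.01 (adjusted p = 0.0802) and 0.74 (adjusted p = 0.109) that did not pass. The change of Cd74 is a lower bound, since 1 C57BL/6J lung of time 1 was at the ceiling. In liver, H2-DMb1 did the same, with a change of 0.44 (adjusted p = 0.0548). At time 1, 6 of 9 members did not overlap in lung and 6 in liver, beside 20.4% and 18.9% of all probe sets. At time 2, 3 of 9 did not in either tissue, beside 28.3% in lung and 33.2% in liver. The share of all probe sets without overlap at both times and of opposite signs was not counted.

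The strain difference departed between tissues for H2-Ea (adjusted p = 4.35e-11), H2-Ab1 (2.19e-07), Cd74 (1.42e-05), H2-DMb1 (6.06e-05), H2-DMa set A (2.00e-04), H2-Aa (0.00369) and Ifi30 (0.00463), beside 23.7% of all probe sets. Spleen Cd74 and H2-Aa read near the top of the scale at both times, and the part of compression in their departure was not tested. Groups of 3 are too small for a search for single outlying arrays.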

How the results depend on the processing

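Of 19 comparisons, the count of members that passed stayed within 1.5 times of the reported one in 116 of 135 recomputations that leave in every replicate number, and in 145 of 168 that leave out 1 array. The share of all probe sets called in each recomputation is not given here. Shifts of these counts are thus not told apart from shifts over all probe sets. Counts that moved, beside the reported count, were as follows. Without the spleens with pancreas transcripts, a fit that leaves 1 array in some groups, spleen had fewer at either time. Lung at time 2 (reported 0) had 1 after centring, quantile normalization or a fit of all 48 arrays. Liver at time 1 (reported 1) had 3 after quantile normalization, without the lower quartile, with trend and robust options or with 6 arrays, and 4 with 48 arrays. The change between times had 1 in spleen (reported 0) and 4 in lung (reported 1) with 48 arrays, and in liver (reported 0) 1 after quantile normalization or with trend and robust options, and 3 without the lower quartile or with 48 arrays. Heart minus liver (reported 4) had 2 within either strain. With the replicate number as a block, liver at time 1 had 2, since H2-Eb1 passed (adjusted p = 0.0306), while the calls of Ifi30 in spleen at time 1 (0.0532) and H2-Aa in heart at time 2 (0.0715) were lost; the block moved no other count of the 19 by over 1.5 times, and the numbers are not known to mark shared animals. Leaving out 1 array gave 5 to 6 and 6 to 7 members in spleen at times 1 and 2, 1 to 5 and 0 to 1 in lung, 4 to 5 and 2 to 3 in heart, and 0 to 5 and 0 to 2 in liver. For the change between times it gave 0 to 1 in spleen, 0 to 4 in lung, 0 in heart and 0 to 3 in liver. For tissues at time 2 it gave 9 in spleen minus lung and minus liver, 8 to 9 in spleen minus heart and lung minus heart, 8 in lung minus liver, and 2 to 4 in heart minus liver. Values whose sign turned were H2-Ea in spleen minus lung (-0.047, adjusted p = 0.781) and spleen minus heart (-0.52, adjusted p = 3.14e-04), and Cd74 in heart minus liver (0.22, adjusted p = 0.46), all within C57BL/6J. The cause was not tested. The ceiling limits spleen H2-Aa and Cd74 at time 1, and both read near the top of the scale at time 2. Low signal, which may be near background, limits H2-Ea. The alternative without the C57BL/6J hearts highest in Scgb1a1 was chosen after seeing the data.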

Other observations

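The replicate numbers carried a pattern that was noticed in these data, and no cause was tested. In A/J, the array numbered 2 had the highest H2-Aa and the highest Cd74 of its group in liver, heart and lung, at both times. In C57BL/6J at time 1, the array numbered 2 was the lowest of its group in all 3 tissues for 6 of 9 class II probe sets (H2-Aa, H2-Ab1, H2-Eb1, H2-DMa set A, Cd74 and Ifi30), beside 3.37% of all probe sets. For A/J at time 1 the array numbered 2 was the highest in all 3 tissues for 3 of 9, beside 2.88% of all, and the lowest in all 3 for 1, Ifi30, beside 3.05%. In A/J at time 2 it was the highest for 2 of 9, beside 2.62%. In C57BL/6J at time 2 it was neither highest nor lowest throughout for any of the 9. Spleen was not included in these counts. In the C57BL/6J spleens of time 1, the array numbered 2 was the lowest for H2-Eb1 but the highest for Ifi30. The labels do not say whether same-numbered arrays of different tissues come from 1 mouse.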
